A study of Hemigymnus melapterus and Thalassoma lunare and Coris batuensis with 46 samples.

Results

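In the forebrain of Coris batuensis, 43 transcripts stood at 2.099 to 16.8 times the mean level of the next highest of 5 wrasse species. They were chosen from the data by a fixed rule, out of 1936 transcripts with a total count of at least 100, which makes 2.22% of these. The rule took the mean level of each species in CPM, the count scaled to the same total in every library. It added 10 CPM, took log2 and sorted the 5 species. A transcript was a member where the largest gap between neighbours in that order was at least 1 and set Coris batuensis alone above the rest. The level in Coris batuensis against the other species was therefore what chose the members, so it is given as a description without a test. Members are called by their rank, from 1 for the widest gap to 43 for the narrowest.

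The libraries came from females of 5 species of the wrasse family, Labridae, 1 library per fish, each from a forebrain slice of 300 µm. Per the labels, Coris batuensis (9 fish) and Labrichthys unilineatus (8 fish) do not clean. The facultative cleaners are Thalassoma lunare (10 fish), Halichoeres melanurus (9 fish) and Hemigymnus melapterus (10 fish). No group was treated, no genotype or age was given, and the time from capture to death ran from 6 to 28 minutes in the series. Cleaning status is fixed within a species, so repeat fish cover the species alone, and the labels do not say whether they were caught together. Facultative cleaners are fishes that take parasites off other fishes for part of their food. The slice held the dorsolateral and dorsomedial pallium of the fish forebrain, areas that are compared with the hippocampus and the amygdala of mammals and that take part in spatial and emotional learning. In 3′ tag sequencing, reads come from near the poly(A) end of each RNA, so a count follows the number of molecules and not their length. PCR copies could not be told apart, because the labels mention no molecular identifiers, so intervals and floors drawn from counts cover counting error only.

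The members have identifiers that begin with ENSONIT. The files pair these with no gene name, sequence or position, so no function is given for any member and the forebrain label could not be checked against marker genes. Fewer cells of a type and less RNA per cell cannot be told apart in such slices.

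The rule left out the libraries labelled Thalassoma lunare 4, Halichoeres melanurus 2 and Hemigymnus melapterus 4, so 43 of 46 libraries were used, 34 of them from the other 4 species. The used libraries held 14800 to 53987 ENSONIT counts (median 33899), and 1 count was worth 18.5 to 67.6 CPM. Coris batuensis 10 was the shallowest of them, at 14800 counts. In a second set of counts, made on Ldim_g identifiers, the share of reads listed as not aligned was 58.1% ± 0.594 (SD, n = 9) in Coris batuensis, 61.1% ± 1.39 (SD, n = 9) in Thalassoma lunare, 58.8% ± 0.989 (SD, n = 8) in Halichoeres melanurus, 51.4% ± 1.16 (SD, n = 9) in Hemigymnus melapterus and 47.0% ± 1.21 (SD, n = 8) in Labrichthys unilineatus. ENSONIT counts came to 5.16% ± 0.209 of the reads listed in that second set in Coris batuensis and to species means of 4.69% to 4.98% in the others. These shares differ between species, and their part in the results below was not tested.

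By the same rule, 76 transcripts were high in Labrichthys unilineatus alone, 73 in Thalassoma lunare, 48 in Hemigymnus melapterus and 33 in Halichoeres melanurus. The members thus formed the second smallest of these 5 sets. Their gaps were also narrower, with a median of 1.46 and a highest of 3.68 on the log2 scale, where the other sets had medians of 1.81 to 1.97 and highest gaps of 4.25 to 5.61. Fewer transcripts, 18, were low in Coris batuensis alone, against 27 to 44 in the other species. The minimum total count was summed over libraries of unequal depth. Mean ENSONIT counts were 43303 in Thalassoma lunare and 37892 in Labrichthys unilineatus, and 26996 to 32761 in the rest. The number for Coris batuensis also moved with the thresholds and the scaling, as given at the end. These set sizes and gaps were not compared by a test, and the part of depth in them was not tested.

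The 43 members made up a small share of the counts in every fish. In Coris batuensis their summed share was 1.55% at the lowest, 1.71% at the median and 2.16% at the highest of 9 fish, with a mean of 1.76% ± 0.187 (SD, n = 9). In the other species the lowest and highest fish stood at 0.240% and 0.372% in Halichoeres melanurus, 0.253% and 0.368% in Hemigymnus melapterus, 0.218% and 0.396% in Labrichthys unilineatus, and 0.247% and 0.442% in Thalassoma lunare. The groups did not overlap, and the other 4 species lay close together, with medians of 0.309% to 0.354%. The mean of Coris batuensis was 5.50 times the mean of the other 4 species means, a difference that the choice of members fixes. The highest fish was the shallow library Coris batuensis 10, and the next highest stood at 1.93%. The libraries left out by the rule stood at 0.187%, 0.261% and 0.435%, which is below every Coris batuensis fish.

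**Figure D1:**
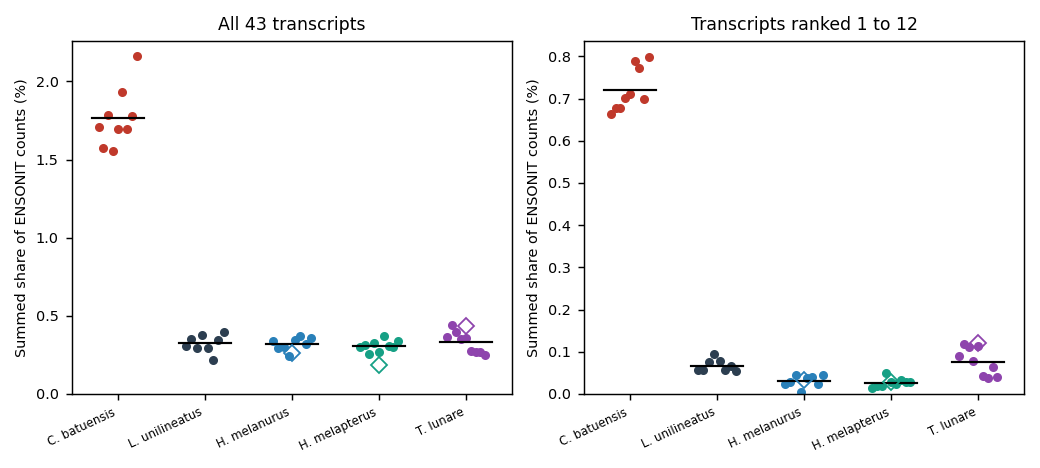
Share of ENSONIT counts (%) taken by all 43 members (left) and by the members ranked 1 to 12 (right), 1 dot per used fish, with the species mean as a black line and the libraries left out by the rule as open diamonds. The Coris batuensis fish lie at 1.55% to 2.16% on the left and at 0.664% to 0.797% on the right, above every other fish in both.

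Levels differed widely among the members. The mean level in Coris batuensis ran from 135 to 2288 CPM, with a median of 266 CPM, where the median over all 1936 transcripts was 132 CPM and the highest 14383 CPM. Only 3 members, ranked 11, 27 and 37, had a Coris batuensis mean over 1000 CPM, and 36 were under 500 CPM. These 3 held 30.5% of the 8549 counts of all members. The next highest species had a mean of 22.05 to 694 CPM. The ratio of Coris batuensis to that species was 2.099 at the lowest, 2.89 at the median and 16.8 at the highest. A gap of at least 2.5 was found for 13 members, of at least 2 for 15 and of at least 1.5 for 19, and the rest lay nearer the threshold. The narrowest gaps inside the threshold were 1.0019 and 1.0029, and the widest just outside it were 0.984 and 0.967.

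**Figure D2:**
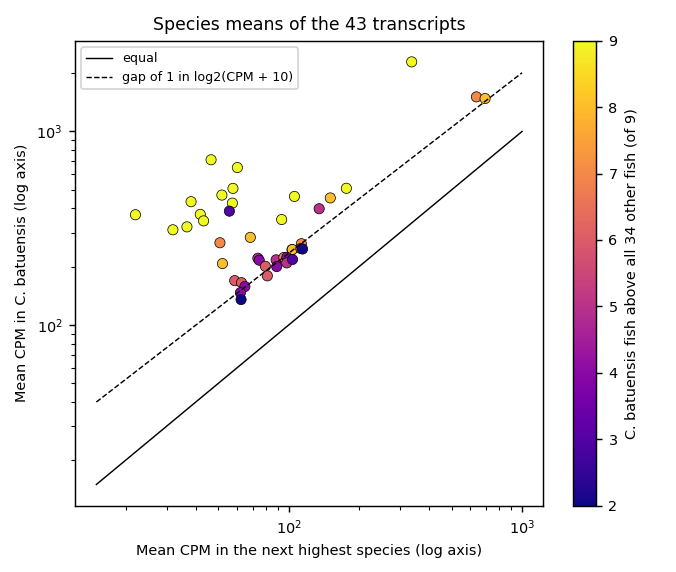
Mean CPM of each of the 43 members in Coris batuensis (vertical, log axis) against its mean in the next highest species (horizontal, log axis), coloured by how many of the 9 Coris batuensis fish lie above all 34 other fish used. The dashed line marks a gap of 1 in log2(CPM + 10), on which the rule cut, and the 3 members over 1000 CPM stand apart at the upper right.

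For 15 of the 43 members (34.9%), every Coris batuensis fish lay above every one of the 34 other fish. Over all 1936 transcripts this held for 16 (0.826%). The rule used this contrast, so nothing is read from the pair of shares. Another 14 members had 6 to 8 Coris batuensis fish above all others, and the remaining 14 had 2 to 5. Of the 387 values of members in Coris batuensis fish, 289 lay above all other fish. Only 7 were at 0, from the members ranked 13 and 34. In the other species 348 of 1462 values (23.8%) were at 0.

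**Figure D3:**
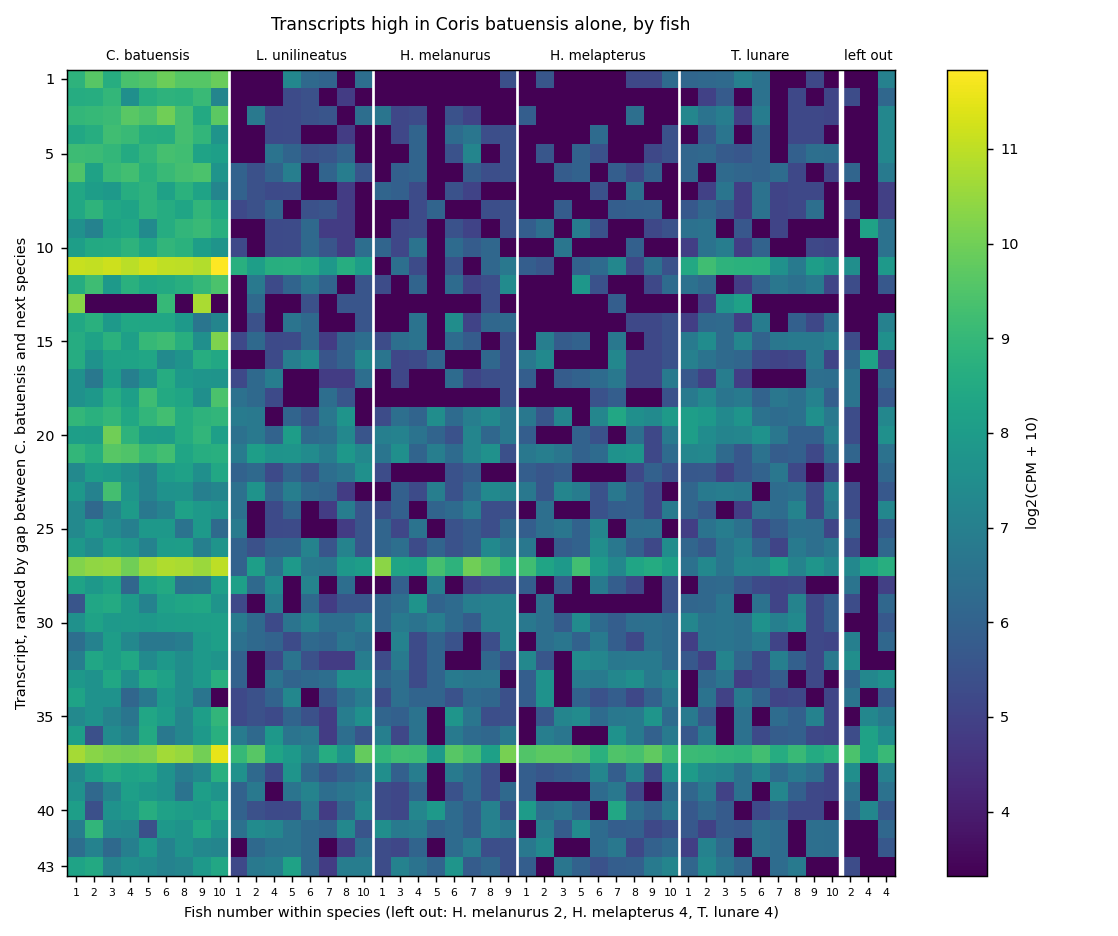
Level of the 43 members (rows, by rank) in each library (columns, numbered as in the labels) as log2(CPM + 10), with the libraries left out by the rule at the right. In each of rows 1 to 12, all 9 Coris batuensis columns are brighter than every used column of the other species, though only just in row 12. Row 11 is also moderately bright in Labrichthys unilineatus and Thalassoma lunare. In row 9 the left-out Hemigymnus melapterus 4, at 288 CPM, is brighter than some Coris batuensis columns. Row 13 is bright in only 3 Coris batuensis columns.

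The members ranked 1 to 12 were all fully separated, a cut chosen after their values were seen. Their summed share was 0.664% at the lowest, 0.700% at the median and 0.797% at the highest of the Coris batuensis fish. It was 0.00571% to 0.0454% in Halichoeres melanurus, 0.0146% to 0.0492% in Hemigymnus melapterus, 0.0556% to 0.0948% in Labrichthys unilineatus and 0.0387% to 0.117% in Thalassoma lunare. By this sum Labrichthys unilineatus lay above the first pair of species in every fish, and Thalassoma lunare overlapped all 3. The member ranked 11 made up much of the sum. It held 15 of the 21 counts in Labrichthys unilineatus 1, against 3 of 14 in Halichoeres melanurus 9. The order is thus that of the sum and not of each of the 12. In units of the Coris batuensis mean, the median of these 12 was 4.23% in Hemigymnus melapterus, 5.45% in Halichoeres melanurus, 6.68% in Labrichthys unilineatus and 9.77% in Thalassoma lunare. No species mean of these members exceeded 14.7% of that of Coris batuensis.

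The widest gap belonged to ENSONIT00000011513.1. Its level in the 9 Coris batuensis fish was 448, 771, 389, 656, 733, 952, 764, 767 and 946 CPM, from 12 to 30 counts each. Halichoeres melanurus had a single count, 32.4 CPM in fish 9, and 0 in the other 7 used fish. All 9 Coris batuensis fish were thus high, and Halichoeres melanurus had almost no counts. Alignment as well as abundance can set such counts, which was not tested. The highest fish stood at 68.6 CPM in Hemigymnus melapterus, 144 CPM in Labrichthys unilineatus and 120 CPM in Thalassoma lunare, with medians of 0, 28.1 and 60.6 CPM. The Coris batuensis mean of 714 CPM ± 193 (SD, n = 9) was 15.4 times the mean of Thalassoma lunare, the next species, at 46.5 CPM ± 42.6 (SD, n = 9). Of the libraries left out, Thalassoma lunare 4 stood at 124 CPM and the other 2 at 0.

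The member ranked 2, ENSONIT00000013079.1, was the only one with no count in a whole species. Its level in the Coris batuensis fish was 373, 386, 486, 179, 382, 444, 425, 531 and 135 CPM, 104 counts in all. None was found in the 8 used Halichoeres melanurus or the 9 used Hemigymnus melapterus fish. Labrichthys unilineatus had 3 counts in 3 fish, and Thalassoma lunare had 8 counts with a highest fish at 82.5 CPM. The transcript was thus near the limit of detection in all other species. Taking 3 counts over the group as the floor, Coris batuensis was at least 32.4-fold higher than Halichoeres melanurus and at least 30.1-fold higher than Hemigymnus melapterus. The left-out library labelled Halichoeres melanurus 2 had 1 count, so the absence held for the used fish only. Thalassoma lunare 4 had 3 counts, and Hemigymnus melapterus 4, where 1 count is worth 144 CPM, had 0.

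The member ranked 11 had the highest level in Coris batuensis. The 9 fish ran from 1829 CPM through a median of 2120 CPM to 3649 CPM, and the highest, the shallow fish 10, lay well above the next at 2333 CPM. Labrichthys unilineatus ran from 225 to 403 CPM (median 375) and Thalassoma lunare from 103 to 587 CPM (median 343). Hemigymnus melapterus ran from 0 to 144 CPM (median 48.5) and Halichoeres melanurus from 0 to 97.2 CPM (median 31.3). By species mean the order was Coris batuensis, then Labrichthys unilineatus and Thalassoma lunare, then Hemigymnus melapterus and Halichoeres melanurus. Coris batuensis overlapped no other species, but neighbours among the other 4 overlapped, with Thalassoma lunare 8 at 103 CPM below Hemigymnus melapterus 7 at 144 CPM. Of the libraries left out, Thalassoma lunare 4 stood at 227 CPM, Halichoeres melanurus 2 at 176 CPM, above every used fish of its label, and Hemigymnus melapterus 4 at 0. The intermediate pair holds 1 species that does not clean and 1 cleaner.

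The member ranked 27, ENSONIT00000020747.1, was graded over the 5 species in another order. Coris batuensis ran from 1013 through 1504 to 2027 CPM. Halichoeres melanurus came next, from 283 through 537 to 1297 CPM, so that its fish 1, at 1297 CPM, and fish 7, at 1004 CPM, reached the lower Coris batuensis fish or came close to them. Hemigymnus melapterus ran from 144 through 308 to 601 CPM. Labrichthys unilineatus, from 53.7 to 263 CPM, and Thalassoma lunare, from 80.8 to 256 CPM, were lowest and overlapped almost fully. For this member the other non-cleaner, Labrichthys unilineatus, thus lay near the far end from Coris batuensis, beside a cleaner. For this member, the libraries left out did not all lie within the range of the used fish of their label. Halichoeres melanurus 2 stood at 147 CPM, below every used fish of that species, and Thalassoma lunare 4 at 392.1 CPM, above every used fish of that species. Hemigymnus melapterus 4 stood at 288 CPM.

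The member ranked 37 had the most counts of all, 1003, and was well expressed in every species. Coris batuensis ran from 1032 through 1285 to 2905 CPM. The highest value was again fish 10, far above the next at 1642 CPM, and without that fish the gap was 0.90, under the threshold. The other species had means of 694 CPM ± 141 (SD, n = 9) in Hemigymnus melapterus, 576 CPM ± 270 (SD, n = 8) in Halichoeres melanurus, 480 CPM ± 83.6 (SD, n = 9) in Thalassoma lunare and 429 CPM ± 279 (SD, n = 8) in Labrichthys unilineatus. Their ranges overlapped one another, and the highest of their fish, at 1070 CPM, reached the lowest Coris batuensis fish.

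**Figure D4:**
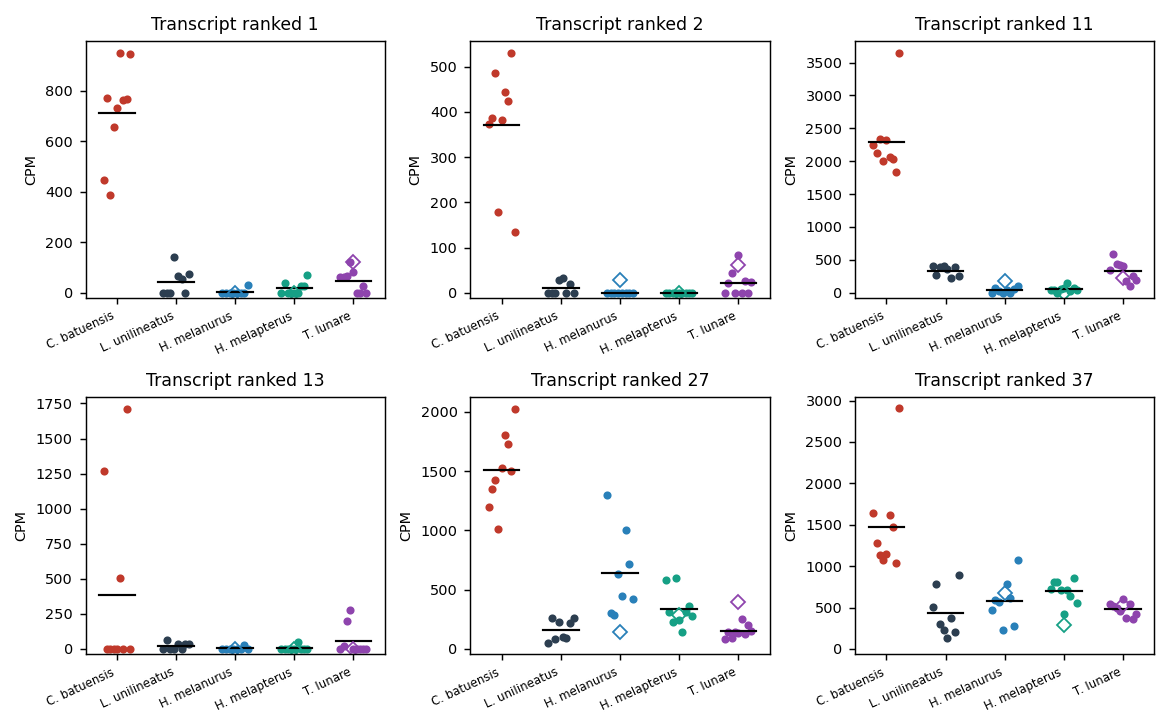
CPM of 6 members in each fish, 1 dot per used fish, with the species mean as a black line and libraries left out by the rule as open diamonds. Ranks 1, 2 and 11 separate all 9 Coris batuensis fish, rank 13 is high in only 3 of them, and ranks 27 and 37 show graded or shared expression in the other species, with fish 10 the single high dot of Coris batuensis in ranks 11 and 37.

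The member ranked 13 met the rule through a few fish. It stood at 1269 CPM (34 counts) in Coris batuensis 1, 508 CPM (16 counts) in fish 6 and 1711 CPM (58 counts) in fish 9. The other 6 fish had 0 counts in 177048, so that even fish 6 was at least 30.0-fold higher than the floor of 3 counts over these 6 fish, 16.9 CPM. Level was thus uneven within the species, with 3 fish from 508 to 1711 CPM and 6 at 0. Of the 34 other fish 9 had counts, among them Thalassoma lunare 5 at 280 CPM (14 counts) and Thalassoma lunare 3 at 200 CPM (9 counts). No other fish outside Coris batuensis exceeded 65.7 CPM. Among all 1936 transcripts, 10 had a Coris batuensis fish at 0 and another with at least 15 counts, and this was the only one of them with 5 or more Coris batuensis fish at 0. These cut-offs were set after its values were seen.

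For most members the spread among Coris batuensis fish was near that of counting alone, but with few counts this can hide a moderate spread between fish. The ratio of the variance between fish to the variance expected from counting, which is 1 where counting is the only source, ran from 0.106 to 33.4 with a median of 1.18. It was 2.27, 1.70 and 4.48 in the members ranked 11, 27 and 37, which had the most Coris batuensis counts (591, 399 and 372). Among the 906 other transcripts with as many Coris batuensis counts as the least counted member, 37, the median was 1.27. The ratio passed 2 in 9 members, ranked 11, 13, 15, 18, 20, 23, 36, 37 and 41, and in 22.4% of those other transcripts. Single fish led some of these. Fish 10 had the highest value of the member ranked 15, at 1149 CPM with the next at 571 CPM. Fish 3 led for the members ranked 20, at 1005 CPM with the next at 472 CPM, and 23, at 616 CPM with the next at 224 CPM. The shallow fish 10 was the highest in 12 of the 43 members, fish 6 in 7, fish 9 in 6 and each of the others in 2 to 5. In fish 10, 1 count was worth 67.6 CPM, the most of any Coris batuensis fish. The highest fish was not counted over all transcripts, so nothing about the members is read from these numbers.

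**Figure D5:**
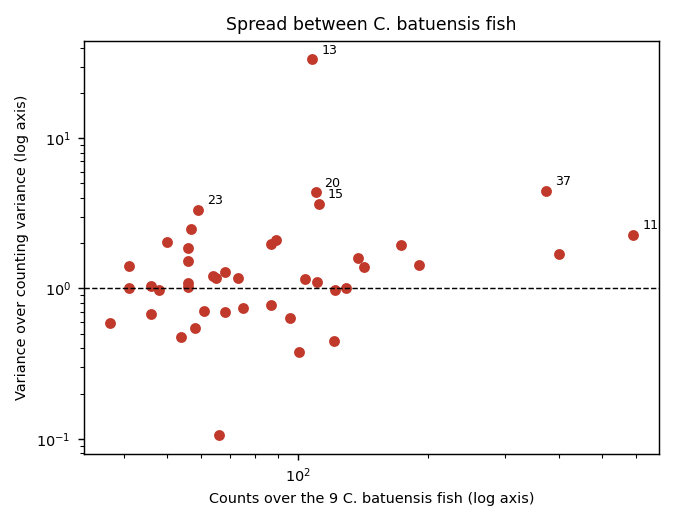
Variance between the 9 Coris batuensis fish divided by the variance expected from counting (vertical, log axis) against the counts of each member over these fish (horizontal, log axis), with the dashed line at 1. Rank 13 stands alone at 33.4, and the points lie on both sides of the line with a median of 1.18.

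Which of the other species came next varied among the members. Thalassoma lunare was next in 16 (37.2%), Hemigymnus melapterus in 11 (25.6%), Labrichthys unilineatus in 10 (23.3%) and Halichoeres melanurus in 6 (14.0%). Among the 1893 other transcripts, the highest of these 4 species was Thalassoma lunare in 26.1%, Hemigymnus melapterus in 25.3%, Halichoeres melanurus in 24.8% and Labrichthys unilineatus in 23.9%. The lowest species was Hemigymnus melapterus in 14 members (32.6%), Halichoeres melanurus in 13 (30.2%), Thalassoma lunare in 11 (25.6%) and Labrichthys unilineatus in 5 (11.6%). In the same order, the shares among the other transcripts were 27.2%, 25.6%, 22.5% and 24.7%. These shares were not tested.

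Cleaning against not cleaning, the question of the series, could not be tested in the members. Without Coris batuensis, Labrichthys unilineatus was the only species left that does not clean, so species and status cannot be told apart. As a comparison of species, Labrichthys unilineatus was set against the mean of the 3 cleaners. This used edgeR's quasi-likelihood test on the 34 other libraries, in which 684 transcripts passed the filter on low counts. Only 3 members passed that filter, ranked 11, 27 and 37, so the rest are too sparse outside Coris batuensis for this test. The rule set no direction among these 4 species, but it kept each gap among them below the gap to Coris batuensis. Of the 3, 1 was higher in Labrichthys unilineatus, against 26.0% of all transcripts tested, and 1 was lower, against 19.7%. The member ranked 11 was higher by 1.91 on the log2 scale (SE 0.27, edgeR adjusted p = 5.97e-08). ENSONIT00000020747.1, ranked 27, fell by 0.94 (SE 0.28, edgeR adjusted p = 0.0052). The member ranked 37 missed the threshold, at -0.44 on the log2 scale (SE 0.22, edgeR adjusted p = 0.0931). The members tested thus did not share a direction between Labrichthys unilineatus and the cleaners, which concerns this species and not cleaning status.

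All 3 tested members passed in at least 1 of the 6 pairs among these 4 species, as did 82.7% of all transcripts tested. For the member ranked 11, Labrichthys unilineatus exceeded Halichoeres melanurus by 3.05 (SE 0.42, edgeR adjusted p = 1.77e-08) and Hemigymnus melapterus by 2.64 (SE 0.39, edgeR adjusted p = 1.58e-07). Thalassoma lunare exceeded the same species by 3.02 (SE 0.40, edgeR adjusted p = 1.04e-08) and 2.61 (SE 0.38, edgeR adjusted p = 6.35e-08). Within each pair of like level, Thalassoma lunare minus Labrichthys unilineatus was -0.03 (SE 0.26, edgeR adjusted p = 0.935), and Hemigymnus melapterus minus Halichoeres melanurus was 0.41 (SE 0.61, edgeR adjusted p = 0.627). The 2 cleaners at the low end and the third cleaner thus differed for this member.

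For ENSONIT00000020747.1 all pairs passed except the lowest. Hemigymnus melapterus minus Halichoeres melanurus was -0.99 (SE 0.28, edgeR adjusted p = 0.00288), and Thalassoma lunare minus Hemigymnus melapterus was -1.10 (SE 0.32, edgeR adjusted p = 0.00333). Labrichthys unilineatus minus Hemigymnus melapterus was -0.97 (SE 0.34, edgeR adjusted p = 0.0165). The 3 cleaners therefore differed from one another in the used fish. With all libraries as labelled, the calls held, at -0.84 for Hemigymnus melapterus minus Halichoeres melanurus (SE 0.32, edgeR adjusted p = 0.0336) and -0.88 for Thalassoma lunare minus Hemigymnus melapterus (SE 0.34, edgeR adjusted p = 0.0340). In the used fish, Thalassoma lunare minus Labrichthys unilineatus was -0.13 (SE 0.36, edgeR adjusted p = 0.790). For the member ranked 37 only Labrichthys unilineatus minus Hemigymnus melapterus passed, at -0.67 (SE 0.26, edgeR adjusted p = 0.0334). That call was lost with all libraries of these species as labelled (edgeR adjusted p = 0.0595).

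A fit of all 1936 transcripts, with no further filter, took in every member, but it is no test of them. Most reached the minimum total only through Coris batuensis, where they were high, since they had a median of 64 counts in the 34 other libraries against 161 in other transcripts. The rule also bounded the gaps among the 4 species. As a description only, 4 members (9.30%) were called higher in Labrichthys unilineatus and 1 (2.33%) lower, beside 19.3% and 14.2% of all transcripts, and 16 (37.2%) were called in at least 1 of the 6 pairs, beside 70.7%. Nothing is read from these shares.

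The counts of the sparser members outside Coris batuensis are given without a test. The member ranked 18 had 37 counts in Thalassoma lunare, 12 in Labrichthys unilineatus, 3 in Hemigymnus melapterus and 1 in Halichoeres melanurus. The member ranked 15 had 42 counts in Thalassoma lunare and 9 to 13 in each of the others. These are raw counts, and Thalassoma lunare had the deepest libraries of these species, with a mean of 43303 ENSONIT counts. By mean CPM, the member ranked 18 stood at 93.3 in Thalassoma lunare and at 4.05 to 35.8 in the other 3 species. The member ranked 15 stood at 106 CPM in Thalassoma lunare and at 41.3 to 45.4 CPM in the other 3. The member ranked 29 had 28 counts in Halichoeres melanurus, 22 in Thalassoma lunare, 11 in Labrichthys unilineatus and 3 in Hemigymnus melapterus.

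The libraries outside the rule gave values it did not use. The library labelled Halichoeres melanurus 2 lay below the lowest Coris batuensis fish in 35 of 43 members, Hemigymnus melapterus 4 in 36 and Thalassoma lunare 4 in 30. In the members ranked 1 to 12 these counts were 12, 11 and 12 of 12. The rule chose members that were high in the Coris batuensis fish. No share over all transcripts was taken for these counts, so nothing is read from them. In the same 12 members, Thalassoma lunare 4 lay above all 34 used fish in 3 (ranks 3, 4 and 5, at 144 CPM each) and Hemigymnus melapterus 4 in 1 (rank 9, at 288 CPM, from 2 counts). Hemigymnus melapterus 4 held 6936 counts and was at 0 in 35 members. Over all members, Thalassoma lunare 4 lay above all 34 used fish in 5 (11.6%, against 2.12% of all transcripts), Hemigymnus melapterus 4 in 3 (6.98%, against 7.64%) and Halichoeres melanurus 2 in 1 (2.33%, against 3.00%). The rule chose members in which the used fish of the other species were low, so a left-out library had a lower level to pass there. The shares of members and of all transcripts are therefore not like for like, and they were not tested.

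The 43 members followed one another to differing degrees across the 43 libraries. Pearson's r of log2(CPM + 10) between a member and the mean of all members ran from 0.398 to 0.932 with a median of 0.653, which the choice by species sets in large part. Of the 1893 other transcripts, the 10 most like that mean had r of 0.627 to 0.692, all had Coris batuensis as the highest species, and 3 had it alone above their largest gap. The mean was that of members chosen as high in Coris batuensis, so the highest species of these 10 was largely set in advance. All share the libraries and their depth.

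In the counts on Ldim_g identifiers, the same rule found 17 of 1755 genes (0.969%) high in Coris batuensis alone. It found 33 for Halichoeres melanurus, 43 for Hemigymnus melapterus, 67 for Labrichthys unilineatus and 42 for Thalassoma lunare, so Coris batuensis had the fewest. Their gaps ran from 1.03 to 3.17 with a median of 1.35, and their means in Coris batuensis from 162 to 3550 CPM. For 6 of them every Coris batuensis fish lay above every other fish used. Their summed share was 1.03% to 1.57% of counts in Coris batuensis and 0.176% to 0.520% in the other fish. The rule chose these genes as high in Coris batuensis, and the separation was not counted over all 1755 genes. Nothing is therefore read from the separation or from the summed shares. The 2 sets of identifiers could not be paired, so it is not known which of these genes are members, and both sets come from the same reads.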

How the data were processed

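The authors deposited a pair of raw count tables per fish, not normalized judging from the values: 26788 ENSONIT transcripts, with 1 unnamed line that held 0 counts, and 28134 Ldim_g genes, with 5 lines that name no gene and were left out of library sizes. In the latter, 4.81% of reads were counted in genes. Cutadapt 2.8, BWA and SAMtools are named in the submitters' processing notes. The reference sequence is not given in the sources used here, nor is the counting program. Each table lists the same identifiers for all species, so a count can reflect alignment as well as abundance.

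CPM was taken over ENSONIT lines, the level was log2 of the species mean CPM + 10, and the total count of at least 100 was summed over the 43 libraries used. The members, the lists and the tests were chosen with earlier results of these data known. Tests left Coris batuensis out: edgeR 4.0.16 in R 4.3.3, with filterByExpr (minimum count 10, minimum total 15), TMM, 1 coefficient per species, 34 libraries and Benjamini-Hochberg adjustment within each contrast over all transcripts tested (threshold 0.05). SE came from dividing the fold change by the square root of F. The scripts were tested on simulated data. The p-values cover the spread between fish of these species. Named were the 2 members with the widest gap and, of at most 2 members that fell in Labrichthys unilineatus, the 1 past the threshold. Gene lists could not be used without names. Among 190 pairs of libraries of a species 0 were identical, and the highest chi-square p over transcripts with at least 20 counts was 8.61e-09. Alternatives were other libraries, offsets, minimum counts, gaps, scalings (TMM, DESeq2 1.42.0 size factors), the DESeq2 Wald test, no filter, a fit with Coris batuensis and a block on fish number.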

Additional observations from a re-analysis of the deposited data

Results flagged for a closer look

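A single fish stood far from the others of its species in 5 of 35 groups of values looked at. The 35 groups were those of the 6 members ranked 1, 2, 11, 13, 27 and 37 and of the summed share. The cut-off is meant to mark about 1 in 20 groups of normally distributed values. Sparse counts differ, because a group with counts in only 1 fish is always marked. No chance rate is therefore given for these groups or for the 220 below. The members ranked 11, 13 and 37 were picked after their ranks were known. Coris batuensis 10, the library with the fewest counts of the species, was far above the other fish for the member ranked 11, at 3649 CPM with the nearest at 2333 CPM, and for the member ranked 37, at 2905 CPM with the nearest at 1642 CPM. In the remaining cases, 1 fish had a single count and all the others of its species 0. These were Halichoeres melanurus 9 for ENSONIT00000011513.1, at 32.4 CPM, and, for the member ranked 13, Halichoeres melanurus 8 at 31.0 CPM and Hemigymnus melapterus 7 at 47.8 CPM. Over all 43 members and the summed share, 27 of 220 such groups had a fish apart, 5 of them among the 44 groups of Coris batuensis.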

How the results depend on the processing

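The number of members, 43, depended most on the thresholds: a minimum total count of 50 gave 141 and of 200 gave 8, and a gap of at least 1.5 gave 19. The Ldim_g counts gave 17 genes. Other settings gave 34 to 49, with 34 under TMM scaling (all 34 shared with the 43) and 34 from species medians (28 shared), which drop the member ranked 13. A total count over all 46 libraries, added after seeing the data, gave 46. Leaving out 1 Coris batuensis fish at a time gave 37 to 44, and 10 members, ranked 34 to 43, lost the gap without some fish, 6 of them without fish 10. Members called in Labrichthys unilineatus against the cleaners numbered 2, and 5 with no filter and 3 in a fit with Coris batuensis. Members called in any pair numbered 3, and 16 with no filter and 6 in the fit with Coris batuensis. That fit tested 11 members, and 584 of all 701 transcripts tested were called in any pair. Both of these settings admit members through their Coris batuensis counts, so nothing is read from the larger numbers. ENSONIT00000020747.1 kept its direction and its call in all alternatives run (log2 fold change -0.98 to -0.90, adjusted p 0.00303 to 0.0144). Apart from the thresholds, the filter and the fitted libraries, the causes were not tested.

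Fish numbers recur across species, but no pairing by number was seen. The mean correlation of same-numbered fish was -0.021 (43 pairs, 3 of them over 0.1), and 1 of 34 libraries correlated best with its own number. With counts this sparse, these correlations cannot tell whether fish of the same number were caught or handled together. With a replicate block on that number, 2 members were called in Labrichthys unilineatus against the cleaners and 2 in any pair, where the member ranked 37 had an adjusted p of 0.0638.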
